A study of Mus musculus with 15 samples.

Results

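The change in gene expression between 12 h and 24 h of differentiation was followed in cultures of neural stem cells taken from the subventricular zone (SVZ) of adult mice, by comparing the 5 arrays titled as differentiated for 24 h with the 5 titled as differentiated for 12 h. These are 10 of the 15 arrays of the series, 1 array per sample, and the groups were taken from the sample titles and source names. The remaining 5 arrays measured undifferentiated cells, which still received bFGF and EGF. All samples came from female C57Bl6/J mice aged 6 months. The cells had been expanded as floating neurospheres and were used at passages 5 to 7. Both groups compared here had lost the growth factors and had been moved onto poly-D-lysine in 5% serum (FCS), so these 3 conditions were the same on both sides. Nothing in the labels ties the 5 samples of a group to separate animals or cultures, so the p-values measure the spread between samples, which may be technical. Passaged neurospheres are a mixture of stem cells and their progeny, and a measurement on a whole culture cannot tell fewer cells of a type from less RNA per cell.

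Neural stem cells of the SVZ divide while fibroblast and epidermal growth factors keep the receptor tyrosine kinase and ERK pathway active. When these factors are withdrawn and the cells attach to a substrate, they leave the cell cycle and can become astrocytes, oligodendrocytes or neurons. Oligodendrocytes pass through a precursor stage under transcription factors such as Olig2 and Sox10 before they switch on the genes of myelin, the membrane that insulates axons. Serum and adhesion by themselves are known to act on genes of the cytoskeleton, the extracellular matrix and the immediate early response.

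Levels are given on the log2 scale, the deposited log10 values multiplied by 3.32, so that a difference of 1 is a doubling and a level of 0 is a deposited value of 1. Of 12393 named genes, the 7909 whose mean over the 15 arrays exceeded 0.51 were tested. A gene was called where limma, fitted over all 15 arrays with Benjamini-Hochberg adjustment over the tested genes, gave an adjusted p under 0.05. Errors after ± are standard errors of that fit for a difference and SDs over 5 arrays for a level.

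Several facts of the arrays bear on every value. The array code in the title and the code in the description disagreed for 13 of the 15 samples, and codes taken from the description would put 8 samples, 5 of them at 12 h or 24 h, into another group. Which code is right is not given in the sources used here. With groups from the description codes limma called 0 genes between 12 h and 24 h, with 0 higher and 21 lower at an unadjusted p under 0.05. The title codes end in 1 of 3 suffixes, called A, B and C here, whose meaning the labels do not give: 12 h replicates 1 and 2 carry A, 3 and 4 carry B and 5 carries C, whereas 24 h replicate 1 carries A, 2 and 3 carry B and 4 and 5 carry C. Arrays of the same suffix deviated together from their group means across genes (median correlation 0.470 over 8 pairs of a 12 h and a 24 h array, and -0.259 over 17 pairs whose suffixes differed). Deviations from a group mean sum to 0 within the group, so positive correlations in some pairs go with negative ones in others. Because arrays of a suffix deviated together, values fitted with suffix as a block, or taken inside 1 suffix, stand beside the main ones where they differ. The title codes also form 6 runs of consecutive numbers, whose meaning the labels do not give. In 4 of these runs there is both a 12 h and a 24 h array, and these make the pairs of consecutive codes used below. 12 h replicates 3 and 4 were the closest arrays: their levels differed with an SD of 0.150 across genes, against 0.277 to 0.800 in the other pairs within the 12 h or the 24 h group. The 3′/5′ ratio of the beta-actin probe sets, a measure of RNA integrity that grows as RNA breaks, was 2.36 ± 0.148 at 12 h and 2.78 ± 0.365 at 24 h (n = 5 each, two-sided exact permutation p = 0.0476, 0.238 after Benjamini-Hochberg adjustment over 5 array measures). The Gapdh ratio was 1.29 ± 0.0772 and 1.34 ± 0.0788 (exact permutation p = 0.286, adjusted 0.476). Beyond the settings given with the results, the part of suffix, labels and RNA integrity in them was not tested.

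Between 12 h and 24 h, 5 genes rose and 28 fell. These are 0.0632% and 0.354% of the genes tested, and 0.417% in either direction. The calls ranged from 1.59-fold to 3.62-fold, and all 5 rises and 14 of the 28 falls reached 2-fold. In 31 of the 33 called genes the 5 arrays of 24 h lay wholly on 1 side of the 5 arrays of 12 h, and Cdh22 and Plpp1 overlapped by 1 array. Over all tested genes 56 (0.708%) were higher and 175 (2.21%) lower at 24 h without overlap, and the median change was -0.06. The sign of all 33 changes was the same in suffix A, in B and in C. For the 31 genes without overlap this follows from the separation of the groups and adds no evidence. A fit with suffix as a block again called all 33, among 40 higher genes (0.506%) and 162 lower genes (2.05%). Under other settings few or none were called. Only the 12 h and 24 h arrays gave 0 higher and 2 lower genes. Averaging 12 h replicates 3 and 4, or the actin ratio as a covariate, gave 0 and 1. The suffix block without those replicates gave 0 and 0, whereas array quality weights gave 258 and 391. The split between rises and falls moved with the scaling: centring each array on its median, which shifts the median of all genes by 0.14, gave 11 higher and 10 lower, and quantile normalisation gave 18 higher and 40 lower, while all 33 called genes kept their direction under both.

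**Figure D1:**
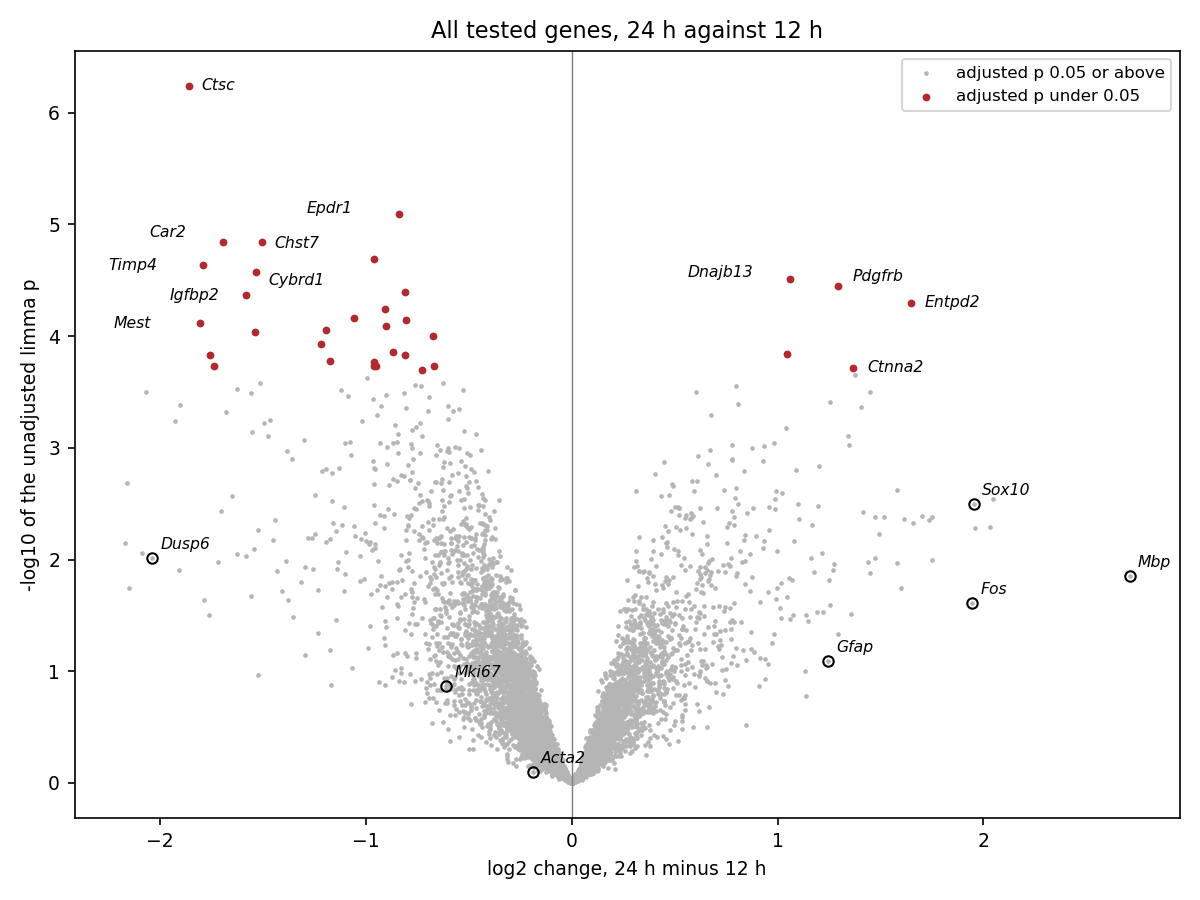
Change from 12 h to 24 h of the 7909 tested genes (x axis, log2) against the evidence for it (y axis, -log10 of the unadjusted limma p), with the 33 called genes in red and 7 members of gene lists ringed. The called falls outnumber the called rises by 28 to 5, and ringed genes with large changes, such as Mbp at 2.71, lie lower in the plot, with wider spread between arrays.

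Of the 5 genes that rose, 4 are described here, and they encode an ectonucleotidase, a junction protein, a growth factor receptor and a ciliary protein. Entpd2, an ectonucleotidase that breaks down extracellular ATP and marks SVZ astrocyte-like stem cells, read 1.87, 1.83, 0.85, 0.87 and 2.46 in 12 h replicates 1 to 5 and 3.98, 2.67, 3.03, 3.44 and 2.99 in 24 h replicates 1 to 5. Every 24 h array was above every 12 h array, and the rise was 1.65 ± 0.30, or 3.13-fold (limma adjusted p = 0.033, 0.0129 with the suffix as a block). Entpd2 was also the only called riser that had been called higher from undifferentiated cells to 12 h, by 1.09 ± 0.30 (limma adjusted p = 0.0368). In that step Ctnna2, Pdgfrb and Dnajb13 rose by 0.51, 0.67 and 0.54 without passing. Ctnna2, the neural alpha-catenin that links cadherins to actin, read 3.78, 3.96, 3.85, 3.25 and 4.09 at 12 h and 5.53, 4.54, 5.25, 5.27 and 5.18 at 24 h. The groups stood apart and the rise was 1.36 ± 0.28 (limma adjusted p = 0.0476).

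Pdgfrb and Dnajb13 started below the filter level: their means in undifferentiated cells (-0.24 and -0.12) and at 12 h (0.43 and 0.42) were under it, and they were tested only because of their 24 h arrays, so that their calls are not independent of the filter. With all 12393 genes tested, both were called as well (limma adjusted p = 0.0239 for Pdgfrb and 0.0227 for Dnajb13). Pdgfrb, the PDGF receptor beta chain, read 0.64, 0.12, 0.03, 0.29 and 1.05 at 12 h and 2.03, 1.14, 2.01, 2.05 and 1.39 at 24 h, a rise of 1.29 ± 0.23 (limma adjusted p = 0.0311). Pdgfrb is best known from pericytes and fibroblasts, and the 9 other markers of those cells on the array (Rgs5, Kcnj8, Abcc9, Des, Dcn, Lum, Col1a1, Col1a2 and Col3a1) stayed under the filter level, with 24 h means from -0.81 to 0.15. The summed linear level of the 10 markers, Pdgfrb included, ran from 8.07 to 8.87 at 12 h and from 9.01 to 11.4 at 24 h. Pdgfrb, chosen for its rise, enters this sum, so the shift of the sum does not describe the 9 other markers. The part of pericytes and fibroblasts in the rise of Pdgfrb was not tested. Dnajb13, a co-chaperone of the radial spokes of motile cilia, read 0.20, 0.74, 0.10, 0.01 and 1.03 at 12 h and 1.87, 1.21, 1.72, 1.46 and 1.14 at 24 h, a rise of 1.06 ± 0.19 (limma adjusted p = 0.0305). Other genes of motile cilia come from the list of ependymal markers, of which 5 were on the array and 2 were tested, and their summed linear level ran from 9.89 to 18.1 at 12 h and from 12.4 to 24.8 at 24 h. Rsph1, another radial spoke protein, was at 0.46 ± 0.09 at 12 h and 0.78 ± 0.13 at 24 h (limma adjusted p = 0.108), and Tekt1 and Spag6l, which were below the filter and untested, moved from -0.16 ± 0.10 to 0.20 ± 0.18 and from -0.48 ± 0.04 to -0.12 ± 0.11. In all 3 the 24 h arrays lay above the 12 h arrays. Over all tested genes 0.708% were higher without overlap, a share that does not cover the untested Tekt1 and Spag6l. The arrays of Foxj1, the master regulator of motile cilia, overlapped (3.34 ± 0.47 and 3.90 ± 0.54, limma adjusted p = 0.31). The remaining marker of the list on the array is not described here. The part of ependymal cells in the rise of Dnajb13 was not tested.

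**Figure D2:**
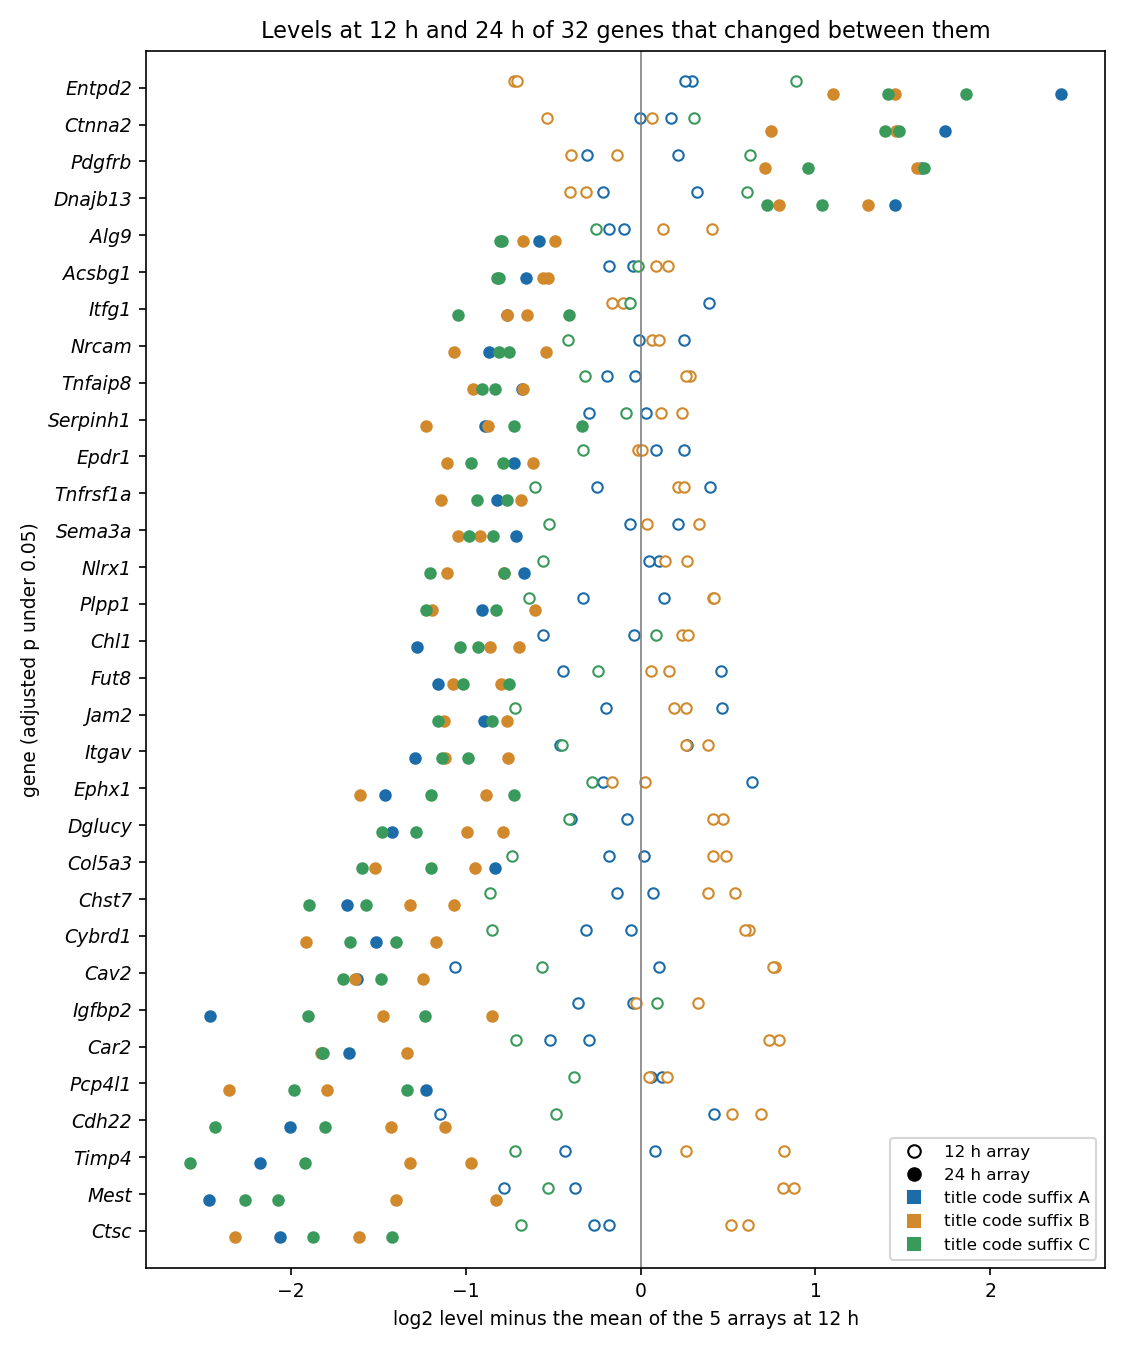
Levels of 32 of the 33 called genes in each array (x axis, log2 level minus the mean of the 5 arrays at 12 h), with open circles for 12 h arrays, filled circles for 24 h arrays and colours for the title code suffix. The filled circles of the 4 genes at the top lie to the right of the open ones and those of the other 28 to the left, apart from an overlap of 1 array in Cdh22 and Plpp1, and the 2 open suffix B circles are often the highest 12 h arrays of the falling genes.

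The genes that fell are given by known function, an order chosen after their values were seen and with no test of any function, beginning with a lysosomal protease and genes of secreted or matrix proteins. Ctsc, the lysosomal protease cathepsin C, read 5.34, 5.25, 6.03, 6.13 and 4.83 at 12 h and 3.45, 3.20, 3.91, 3.65 and 4.10 at 24 h. The groups lay well apart, and Ctsc fell by 1.86 ± 0.23, or 3.62-fold, the smallest adjusted p of all genes (limma adjusted p = 0.00453). Timp4, an inhibitor of matrix metalloproteinases, read 4.51, 5.03, 5.20, 5.77 and 4.23 at 12 h and 2.77, 3.63, 3.98, 3.03 and 2.37 at 24 h and fell by 1.79 ± 0.31 (limma adjusted p = 0.0304). Igfbp2, a secreted carrier of insulin-like growth factors, read 8.75, 8.44, 8.77, 9.12 and 8.89 at 12 h and 6.33, 7.32, 7.94, 7.56 and 6.89 at 24 h and fell by 1.58 ± 0.29 (limma adjusted p = 0.0311). The 12 h arrays of Igfbp2 lay close together, and the 24 h array of suffix A was the lowest. Col5a3, a collagen chain, fell by 1.22 ± 0.24, Serpinh1, the collagen chaperone of the endoplasmic reticulum, fell by 0.81 ± 0.16, and Sema3a, a secreted axon guidance factor, fell by 0.90 ± 0.17.

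Next are genes of cell adhesion, although in the list of integrins and adhesion genes Itgav was the 1 call among 15 tested. Itgav, the integrin alpha v chain, read 7.56, 6.83, 7.55, 7.68 and 6.84 at 12 h and 6.00, 6.18, 6.54, 6.16 and 6.30 at 24 h and fell by 1.06 ± 0.20 (limma adjusted p = 0.0377). The groups were separate, with 12 h replicates 2 and 5 nearest to the 24 h arrays. Jam2, a junctional adhesion molecule, fell by 0.96 ± 0.20, and Nrcam and Chl1, both neural adhesion molecules of the L1 family, fell by 0.81 ± 0.15 and 0.96 ± 0.20. Cdh22, a cadherin, read 2.31, 3.88, 4.14, 3.98 and 2.97 at 12 h and 1.45, 2.03, 2.33, 1.65 and 1.02 at 24 h. It fell by 1.76 ± 0.36 (limma adjusted p = 0.0468), with 12 h replicate 1 lying just below the highest 24 h array. Itfg1, a membrane protein with integrin-like repeats, fell by 0.73 ± 0.15.

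Among genes of membranes and signalling, Cav2, a caveolin of plasma membrane pits, read 3.66, 4.83, 5.49, 5.48 and 4.16 at 12 h and 3.11, 3.09, 3.48, 3.02 and 3.24 at 24 h. The 24 h arrays were tightly grouped and the 12 h arrays were not, and Cav2 fell by 1.54 ± 0.30 (limma adjusted p = 0.0385). Tnfrsf1a, the main receptor for tumour necrosis factor, fell by 0.87 ± 0.18 and Tnfaip8, a gene induced by that factor, by 0.81 ± 0.15. Plpp1, a phosphatase of bioactive lipids, fell by 0.95 ± 0.20, and Nlrx1, a mitochondrial member of the NLR family, fell by 0.91 ± 0.17. Pcp4l1, a small protein related to a calmodulin regulator, read 3.84, 3.90, 3.93, 3.83 and 3.39 at 12 h and 2.55, 1.43, 1.99, 2.44 and 1.80 at 24 h and fell by 1.74 ± 0.36 (limma adjusted p = 0.0476). Epdr1, an ependymin-related protein, fell by 0.84 ± 0.13, a modest change with little spread between arrays (limma adjusted p = 0.0282).

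Enzymes and transporters made up the rest. Mest, an imprinted gene expressed from the paternal allele, read 6.54, 6.95, 8.14, 8.20 and 6.79 at 12 h and 4.85, 5.92, 6.49, 5.25 and 5.06 at 24 h. The highest 24 h array lay just under the lowest 12 h array, the suffix B arrays were the highest of both groups, and Mest fell by 1.81 ± 0.34 (limma adjusted p = 0.0377, 0.00112 with the suffix as a block). Car2, carbonic anhydrase 2, read 5.28, 5.50, 6.59, 6.53 and 5.09 at 12 h and 4.13, 3.97, 4.46, 3.98 and 3.98 at 24 h and fell by 1.69 ± 0.28 (limma adjusted p = 0.0282). Car2 is abundant in mature oligodendrocytes, and its course was opposite in sign to that of most myelin genes described further on. Cybrd1, a ferric reductase that supplies iron, read 3.70, 3.45, 4.38, 4.36 and 2.91 at 12 h and 2.25, 1.85, 2.59, 2.36 and 2.10 at 24 h and fell by 1.53 ± 0.27 (limma adjusted p = 0.0304). Chst7, a sulfotransferase for chondroitin sulfate, read 3.82, 4.02, 4.49, 4.34 and 3.09 at 12 h and 2.28, 2.63, 2.89, 2.38 and 2.06 at 24 h. It fell by 1.51 ± 0.25 (limma adjusted p = 0.0282). Among the called falls, only Chst7 had also been called lower from undifferentiated cells to 12 h, by 1.48 ± 0.25 (limma adjusted p = 0.00416).

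The remaining falls were smaller. Ephx1, microsomal epoxide hydrolase, fell by 1.17 ± 0.24, Dglucy, D-glutamate cyclase, by 1.19 ± 0.23 and Acsbg1, an acyl-CoA synthetase of long fatty acids, by 0.68 ± 0.13. Of the enzymes that build N-glycans, Fut8, the core fucosyltransferase, fell by 0.96 ± 0.16 and Alg9, a mannosyltransferase, by 0.67 ± 0.14. The 10 next rises that missed the threshold, taken by smallest p, had limma adjusted p from 0.0522 to 0.0764. In 7 of them the groups did not overlap, where 0.708% of all tested genes were higher without overlap. A choice by p favours such genes, so this count adds no evidence. Of these 10, Glul, the glutamine synthetase of astrocytes, read 7.09, 6.90, 6.62, 7.05 and 7.33 at 12 h and 7.81, 7.57, 8.06, 7.73 and 7.82 at 24 h, a difference of 0.80 ± 0.17 (limma adjusted p = 0.0535). Its 24 h arrays were all above its 12 h arrays, and Glul was called with the suffix as a block (limma adjusted p = 0.0264). Fxyd1, a regulator of the sodium pump, differed by 1.25 ± 0.28 and Padi2, a peptidylarginine deiminase of oligodendrocytes and astrocytes, by 1.45 ± 0.32 (limma adjusted p = 0.0578 and 0.0535).

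Promoters of 4 called genes are shown because they hold the palindromic AP-1 motif, the site of Fos and Jun proteins, whose genes are themselves immediate early genes on this array. The motif was chosen after the data were seen. RefSeq windows (assembly GRCm38.p6) of 250 bases before to 50 after each annotated start were searched for TGACTCA and its reverse complement TGAGTCA, which is the same site read on the other strand. Windows on 1 chromosome were left out of the search and of the counts. The motif was present in 279 of the 6492 tested genes with a searched window (4.30%). Among called genes with a searched window it was present in 3 of the 24 lower and in 1 of the 4 higher genes. The windows lie on the plus strand at chr6:17280935-17281234 for Cav2, chr2:71117804-71118103 for Cybrd1, chr1:72825137-72825436 for Igfbp2 and chr2:25395624-25395923 for Entpd2, each across the start of its gene, and the motif is in capitals.
Cav2: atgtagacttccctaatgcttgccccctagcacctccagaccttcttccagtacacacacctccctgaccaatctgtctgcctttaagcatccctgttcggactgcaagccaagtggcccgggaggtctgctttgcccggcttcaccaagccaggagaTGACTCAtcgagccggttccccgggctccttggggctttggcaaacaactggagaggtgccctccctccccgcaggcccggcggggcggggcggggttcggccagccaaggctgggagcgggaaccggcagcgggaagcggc
Cybrd1: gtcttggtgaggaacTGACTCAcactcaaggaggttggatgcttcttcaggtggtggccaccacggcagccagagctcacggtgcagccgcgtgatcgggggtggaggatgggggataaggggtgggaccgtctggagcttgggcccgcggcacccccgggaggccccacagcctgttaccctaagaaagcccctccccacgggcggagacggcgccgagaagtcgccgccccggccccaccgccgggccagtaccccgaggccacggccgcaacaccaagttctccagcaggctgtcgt
Igfbp2: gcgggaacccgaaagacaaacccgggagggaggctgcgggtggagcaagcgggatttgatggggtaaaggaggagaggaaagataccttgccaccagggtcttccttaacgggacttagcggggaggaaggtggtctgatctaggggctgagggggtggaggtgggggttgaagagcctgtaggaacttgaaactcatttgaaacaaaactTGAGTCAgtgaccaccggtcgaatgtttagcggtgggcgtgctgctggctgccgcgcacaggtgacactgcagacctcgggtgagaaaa
Entpd2: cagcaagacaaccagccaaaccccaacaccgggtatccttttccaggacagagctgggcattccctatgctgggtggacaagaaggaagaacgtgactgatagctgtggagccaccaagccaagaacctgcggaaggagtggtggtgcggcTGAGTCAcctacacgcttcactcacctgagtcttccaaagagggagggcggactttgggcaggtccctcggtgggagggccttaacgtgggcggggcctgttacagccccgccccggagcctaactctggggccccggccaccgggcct
A match describes these letters in these windows and says nothing of binding, and these genes moved in both directions: Cav2, Cybrd1 and Igfbp2 fell and Entpd2 rose.

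To place the rest of the transcriptome, 30 gene lists of pathways and cell types were read, with 384 different tested genes. The lists, and the markers below, were chosen with earlier results of these data known. Of these 384, 3 were called, Itgav, Igfbp2 and Pdgfrb, where 0.417% of all tested genes were. The other 30 of the 33 called genes lay outside every list, as did most tested genes. Of 21 tested markers of cell types and pathways that were followed whatever their result, limma called 0, with 7 higher and 3 lower at an unadjusted p under 0.05. For all such counts below, 4.67% of all tested genes were higher and 10.4% lower at an unadjusted limma p under 0.05, and 59.9% of all changes lay below 0 and 40.1% above. With the suffix as a block 5 of the 384 list genes were called higher and 17 lower, where 0.506% and 2.05% of all tested genes were.

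**Figure D3:**
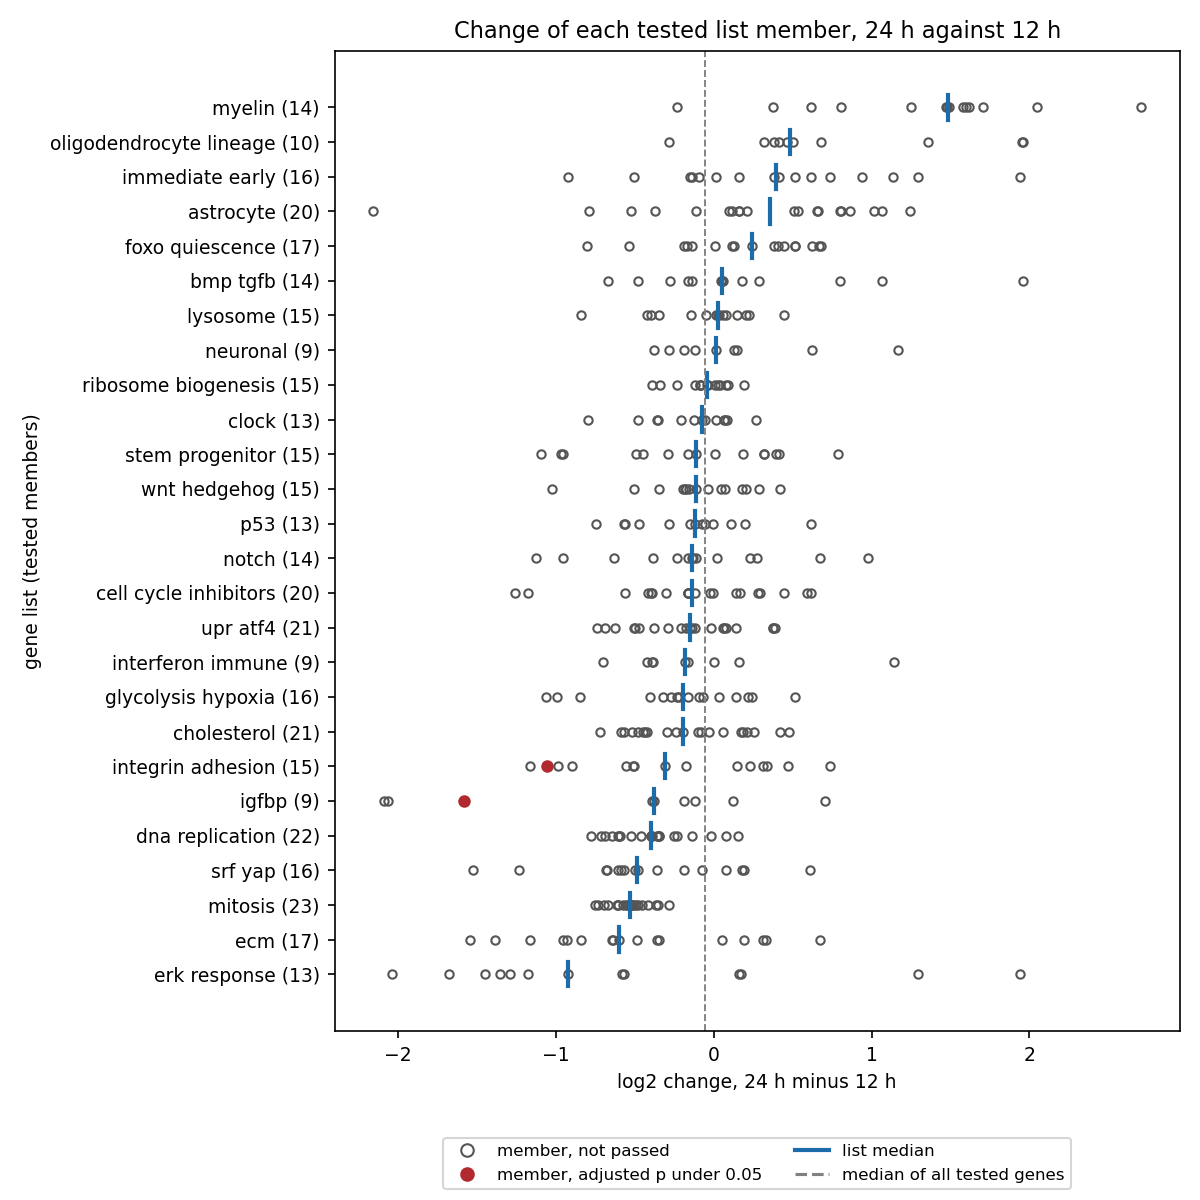
Change from 12 h to 24 h (x axis, log2) of each tested member of the 26 lists with at least 9 tested genes, 1 line per list, with the list median as a blue bar and the median of all tested genes as a dashed line. The myelin list has the highest median (1.48) and the ERK response list the lowest (-0.92), and only 2 members in view are called.

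Myelin genes had the largest shift of any list. None of the 14 tested members passed in limma after adjustment, 13 were higher at an unadjusted p under 0.05, and the median was 1.48 against -0.06 over all tested genes. Mbp, myelin basic protein, read 2.37, 4.75, 7.02, 7.51 and 9.64 in 12 h replicates 1 to 5 and 7.21, 9.12, 8.52, 9.81 and 10.18 in 24 h replicates 1 to 5. Its 12 h arrays spanned more than 7 log2 units, 12 h replicate 5 lay above 3 of the 24 h arrays, and the difference of 2.71 ± 0.98 did not pass (limma adjusted p = 0.199). Ugt8a, which makes the galactolipid of myelin, read 3.95, 3.88, 4.84, 5.14 and 7.32 at 12 h and 5.99, 7.25, 6.75, 7.55 and 7.82 at 24 h, a difference of 2.05 ± 0.58 (limma adjusted p = 0.116). Myrf, the transcription factor of myelin genes, read 1.48, 1.35, 2.32, 2.52 and 4.07 at 12 h and 2.90, 4.13, 3.65, 4.50 and 3.91 at 24 h, a difference of 1.47 ± 0.44 (limma adjusted p = 0.129).

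The same array, 12 h replicate 5, was the highest 12 h array in 12 of the 14 myelin genes. The mean level of the 14 genes was 2.35, 2.25, 2.93, 3.11 and 4.55 in the 12 h arrays and 3.49, 4.63, 4.31, 4.86 and 4.50 in the 24 h arrays, so that this 12 h array sat among the 24 h arrays. Without it the list median was 1.94, with the actin ratio as a covariate it was 0.88, and with groups from the description codes it was 0.20. Within the suffixes the median change was 1.16 in A, 1.55 in B and 0.12 in C, the suffix of that array. With the suffix as a block Mobp, a myelin-associated basic protein, was the 1 member called (1.47, limma adjusted p = 0.0479). Genes of the oligodendrocyte lineage had a median change of 0.48, with 0 of 10 called by limma, 9 of 10 above 0 and 5 higher at an unadjusted p under 0.05, and a median of 0.06 with groups from the description codes. Sox10, which drives the lineage, read 2.47, 2.30, 2.81, 3.07 and 5.22 at 12 h and 4.56, 5.50, 4.93, 5.94 and 4.70 at 24 h (1.95 ± 0.56, limma adjusted p = 0.121), with 12 h replicate 5 again among the 24 h arrays. Olig2, present throughout the lineage, differed by only 0.32 ± 0.29.

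Astrocyte genes had a median change of 0.36, with 0 of 20 called by limma, 15 of 20 above 0, and 4 higher and 3 lower at an unadjusted p under 0.05. The median was 0.06 without 12 h replicates 3 and 4 and 0.03 with groups from the description codes. Gfap, the intermediate filament of astrocytes, read 5.42, 5.96, 4.49, 5.07 and 7.03 at 12 h and 6.87, 6.31, 6.62, 7.56 and 6.83 at 24 h (1.24 ± 0.67, limma adjusted p = 0.394). The groups overlapped through 12 h replicate 5. Cd44, the hyaluronan receptor of astrocyte precursors, read 3.57, 2.90, 5.44, 5.03 and 1.35 at 12 h and 2.07, 1.68, 2.23, 0.90 and 0.62 at 24 h, a difference of -2.16 ± 0.59 (limma adjusted p = 0.101). With the suffix as a block Glul and Gja1, the gap junction protein of astrocytes, were called higher and Cd44 lower. Neuronal genes had a median change of 0.02, whose sign turned under 8 of 37 other settings, with 0 of 9 called by limma and 2 higher at an unadjusted p under 0.05. Dcx, of migrating young neurons, was higher at 24 h without overlap (12 h range 0.89 to 1.69, 24 h range 1.95 to 2.84) without passing (1.17 ± 0.36, limma adjusted p = 0.136). Stem and progenitor genes had a median change of -0.11 with 0 of 15 called by limma and 1 higher and 4 lower at an unadjusted p under 0.05, and the sign of the median turned under 7 of 37 other settings, median centring among them.

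**Figure D4:**
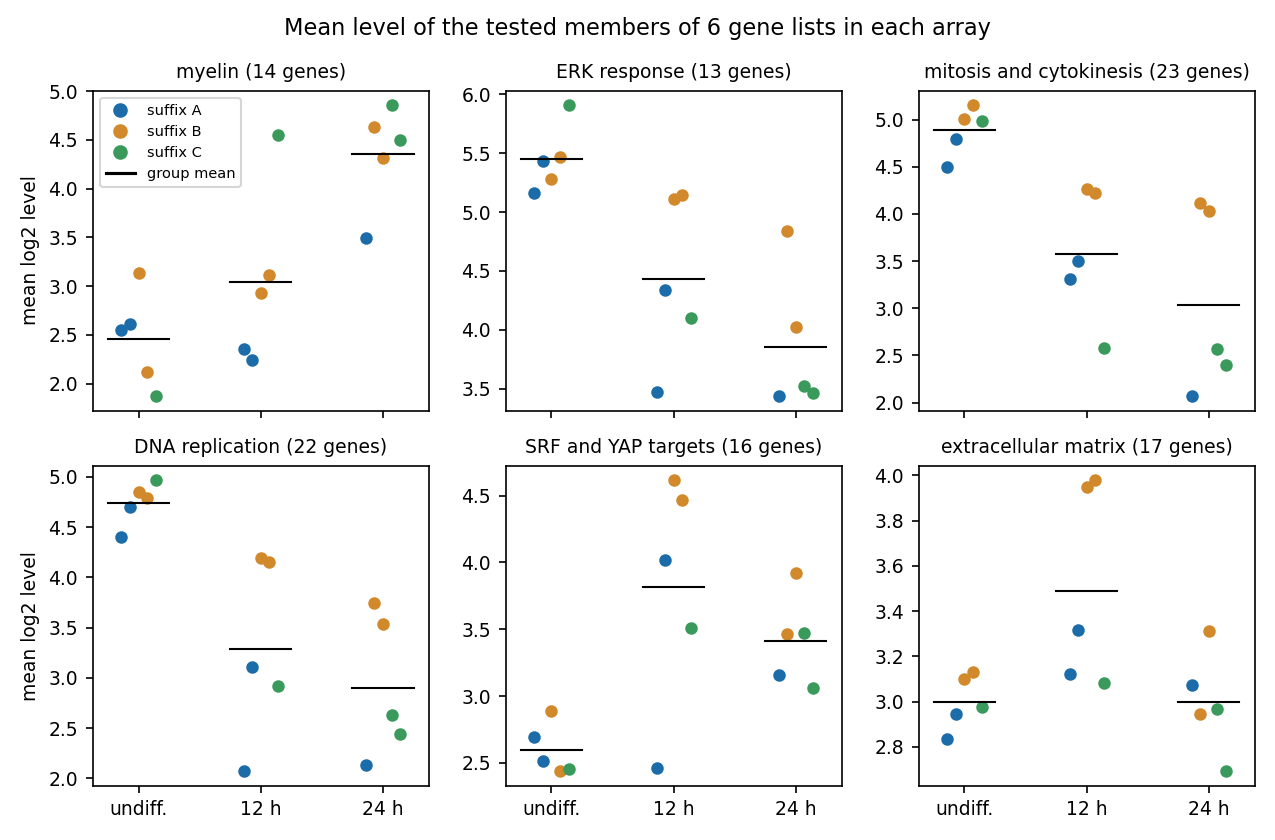
Mean log2 level (y axis) of the tested members of 6 gene lists in each of the 15 arrays, by group (x axis), with bars for group means and colours for the title code suffix. In the myelin panel the suffix C array of 12 h (4.55) sits among the 24 h arrays, and in the other panels the 2 suffix B arrays of 12 h lie above the rest of their group.

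Targets of ERK signalling had the lowest median, -0.92, with 0 of 13 called by limma, 9 of 13 below 0 (59.9% over all genes), and 2 higher and 7 lower at an unadjusted p under 0.05. Inside suffix A the median was -0.72, inside B -1.20 and inside C -0.85, without 12 h replicates 3 and 4 it was -0.16, and with groups from the description codes -0.06. Dusp6, the ERK phosphatase that ERK itself induces, read 3.07, 4.89, 7.08, 7.23 and 4.03 at 12 h and 1.87, 4.49, 3.67, 2.78 and 3.30 at 24 h (-2.04 ± 0.70, limma adjusted p = 0.17). Etv4, an ETS factor induced by FGF, read 2.36, 2.44, 3.86, 3.82 and 1.74 at 12 h and 0.82, 1.95, 1.81, 0.74 and 0.48 at 24 h (-1.68 ± 0.39, limma adjusted p = 0.0595). The 2 suffix B arrays were the highest of the 12 h group for both genes. With the suffix as a block Etv4, its relative Etv5 and the feedback inhibitor Spred2 were called lower. The 4 members above 0 were Myc, Phlda1, Egr1 and Fos. From undifferentiated cells to 12 h the list median was -1.12 with 1 of 13 genes called lower.

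Cell division genes also lay lower at 24 h without a call. In the deposited scaling the median was -0.40 over 22 genes of DNA replication, 20 of them below 0, and -0.53 over 23 genes of mitosis and cytokinesis, all 23 of them below 0 where 59.9% of all genes were, and 0 genes of either list passed in limma, adjusted or at an unadjusted p under 0.05. Mki67, the proliferation marker, read 5.86, 5.44, 5.98, 6.07 and 4.79 at 12 h and 3.63, 6.13, 5.99, 4.67 and 4.66 at 24 h (-0.61 ± 0.39, limma adjusted p = 0.476). The 24 h arrays of suffix B were as high as the 12 h arrays, and the mitosis list changed by -1.35 within suffix A, -0.15 within B and -0.12 within C. Without 12 h replicates 3 and 4 the replication median was 0.17 and the mitosis median -0.08, and with groups from the description codes they were -0.13 and -0.15. From undifferentiated cells to 12 h the medians were -1.39 and -1.34, with 17 of 22 and 9 of 23 genes called lower. For Ccnd2, a cyclin of the G1 phase, the difference was -1.26 ± 0.45 (limma adjusted p = 0.188).

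Lists of the matrix, of adhesion and of the contractile cytoskeleton had positive medians up to 12 h and negative medians afterwards, with 1 call after 12 h. Their median changes from 12 h to 24 h were -0.60 over 17 matrix genes, -0.31 over 15 integrins and adhesion genes and -0.49 over 16 targets of SRF and YAP, the factors that read cytoskeletal tension. The medians of the earlier step were 0.49, 0.46 and 0.91, and both steps share the 12 h arrays. The call was Itgav, and at an unadjusted limma p under 0.05 the matrix list had 1 higher and 8 lower genes, the adhesion list 1 and 5 and the SRF and YAP list 1 and 3, against 4.67% and 10.4% of all genes. Fn1, fibronectin, read 1.71, 2.32, 4.06, 4.18 and 1.56 at 12 h and 0.99, 1.67, 2.36, 1.20 and 0.66 at 24 h (-1.39 ± 0.48, limma adjusted p = 0.176). 12 h replicates 3 and 4 stood above all others. Acta2, smooth muscle actin, read 2.41, 6.82, 7.12, 7.07 and 6.21 at 12 h and 4.28, 6.23, 6.94, 5.92 and 5.31 at 24 h (-0.19 ± 0.72, limma adjusted p = 0.933), with 12 h replicate 1 far below the rest. With the suffix as a block Fn1, Col5a1, Timp1 and Itgb1 were called lower beside Itgav. Without 12 h replicates 3 and 4 the SRF and YAP median was 0.10, the matrix median -0.29 and the adhesion median -0.08, and with groups from the description codes the SRF and YAP median was 0.11, the adhesion median 0.06 and the matrix median -0.04.

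In the insulin-like growth factor list, of 9 tested genes, Igfbp2 fell and the median was -0.38, or 0.05 with the actin ratio as a covariate. The 2 other binding proteins with large differences had wide spread: Igfbp3 read 3.86, 6.68, 8.13, 8.36 and 5.80 at 12 h and 3.53, 5.31, 5.80, 4.05 and 3.68 at 24 h (-2.09 ± 0.70, limma adjusted p = 0.164). Igfbp4 read 5.28, 4.72, 4.85, 5.15 and 2.94 at 12 h and 2.54, 3.11, 3.65, 2.30 and 0.998 at 24 h (-2.07 ± 0.45, limma adjusted p = 0.0535). For Igfbp4 the 12 h array of suffix C lay within the 24 h range, and within each suffix the 24 h level was lower. Both were called lower with the suffix as a block. Igfbp5, in contrast, was higher by 0.70 ± 0.47 (limma adjusted p = 0.5).

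Immediate early genes had a median change of 0.40 with 0 of 16 called by limma and 2 higher and 1 lower at an unadjusted p under 0.05, and the sign depended on 1 array. Their mean level was 2.45, 3.35, 3.01, 3.01 and 3.47 at 12 h and 3.13, 5.20, 3.26, 2.86 and 2.83 at 24 h, with 24 h replicate 2 above all others. Egr2, a zinc finger factor of this class, read 4.42 in that array against 0.28 to 1.13 in the other 24 h arrays, and Fos read 9.62 against 7.32 to 7.85. Without 24 h replicate 2 the list median was -0.04, and within the suffixes it was 0.07 in A, 1.36 in B and -0.67 in C.

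The other pathway lists had medians between -0.20 and 0.24 with 0 genes called by limma without a block: cell cycle inhibitors, BMP and TGF-beta, Notch, Wnt and hedgehog, cholesterol synthesis, ribosome biogenesis, lysosome, FoxO and quiescence, p53, the unfolded protein response, glycolysis and hypoxia, interferon and the circadian clock. Among these, the medians of cholesterol synthesis (-0.20) and interferon (-0.19) kept their sign under all 37 other settings, and each of the others turned under at least 1. With the suffix as a block Gabarapl1 of the FoxO list was called higher, and Trib2 of that list, Aldoa of glycolysis, Pdia6 of the unfolded protein response and Srebf2 of cholesterol synthesis were called lower. The Aldoa probe set used changed by -0.85 without a block, and its other probe sets changed less, by -0.38, -0.21 and -0.29. Within these pathway lists, Lfng, a Notch-modifying glycosyltransferase, and the Notch target Hes1 were lower at 24 h without overlap between the groups (-1.13 ± 0.30 and -0.96 ± 0.25, limma adjusted p = 0.0919 for both). Markers of other cells were at the bottom of the range: 1 of 15 microglial markers (Cd14) and 0 of 10 endothelial markers exceeded the filter level, and the summed linear levels of these markers ran from 13.1 to 13.5 at 12 h and 12.6 to 13.3 at 24 h for microglia and from 7.66 to 8.24 and 7.45 to 8.13 for endothelium.

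The interval from 12 h to 24 h was then set beside the first 12 h. From undifferentiated cells to 12 h, 261 genes rose and 361 fell (3.3% and 4.56%), against 5 and 28 afterwards, but counts at a threshold do not test the difference between the steps. The test of that difference, the change from 12 h to 24 h minus the change up to 12 h, called 0 of 7909 genes (0.0%), with 184 higher and 504 lower at an unadjusted limma p under 0.05, and 0 with the suffix or the runs of codes as a fixed block. The 2 steps share the 12 h arrays. The 5 genes with the smallest p and a positive difference had all fallen by 12 h, and none passed in the later step. Mylk, myosin light chain kinase, changed by -2.11 ± 0.18 up to 12 h and by -0.46 ± 0.18 afterwards, and Tle6, a corepressor of the Groucho family, by -2.18 ± 0.21 and -0.40 ± 0.21. In the other 3 the later change was positive: Dhx9, an RNA helicase, changed by -0.59 ± 0.15 and then by 0.52 ± 0.15, Nsmce4a, of the SMC5/6 complex, by -0.69 ± 0.11 and 0.25 ± 0.11, and Cherp by -0.73 ± 0.12 and 0.30 ± 0.12. Those with a negative difference included Dbp, a circadian transcription factor, which changed by 2.20 ± 0.29 and then by -0.48 ± 0.29, and the semaphorin receptor Nrp1 with 0.82 ± 0.16 and then -0.62 ± 0.16. For Dbp the 24 h arrays spread from 3.35 to 5.21 around 12 h values of 4.52 to 5.19, and the change was 0.56 within suffix A but -1.48 within B.

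Among the 33 called genes, Entpd2 and Chst7 had been called in the first 12 h in the same direction, and 0 had been called in the opposite direction. Compared with undifferentiated cells, 30 of the 33 were called at 24 h, where 32.1% of all tested genes were. The exceptions were Itfg1, Nrcam and Serpinh1, whose 24 h levels differed from undifferentiated cells by -0.25, -0.30 and -0.43. These comparisons share the 24 h arrays with the one that chose the genes, so they describe the course of each gene and add no further evidence.

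**Figure D5:**
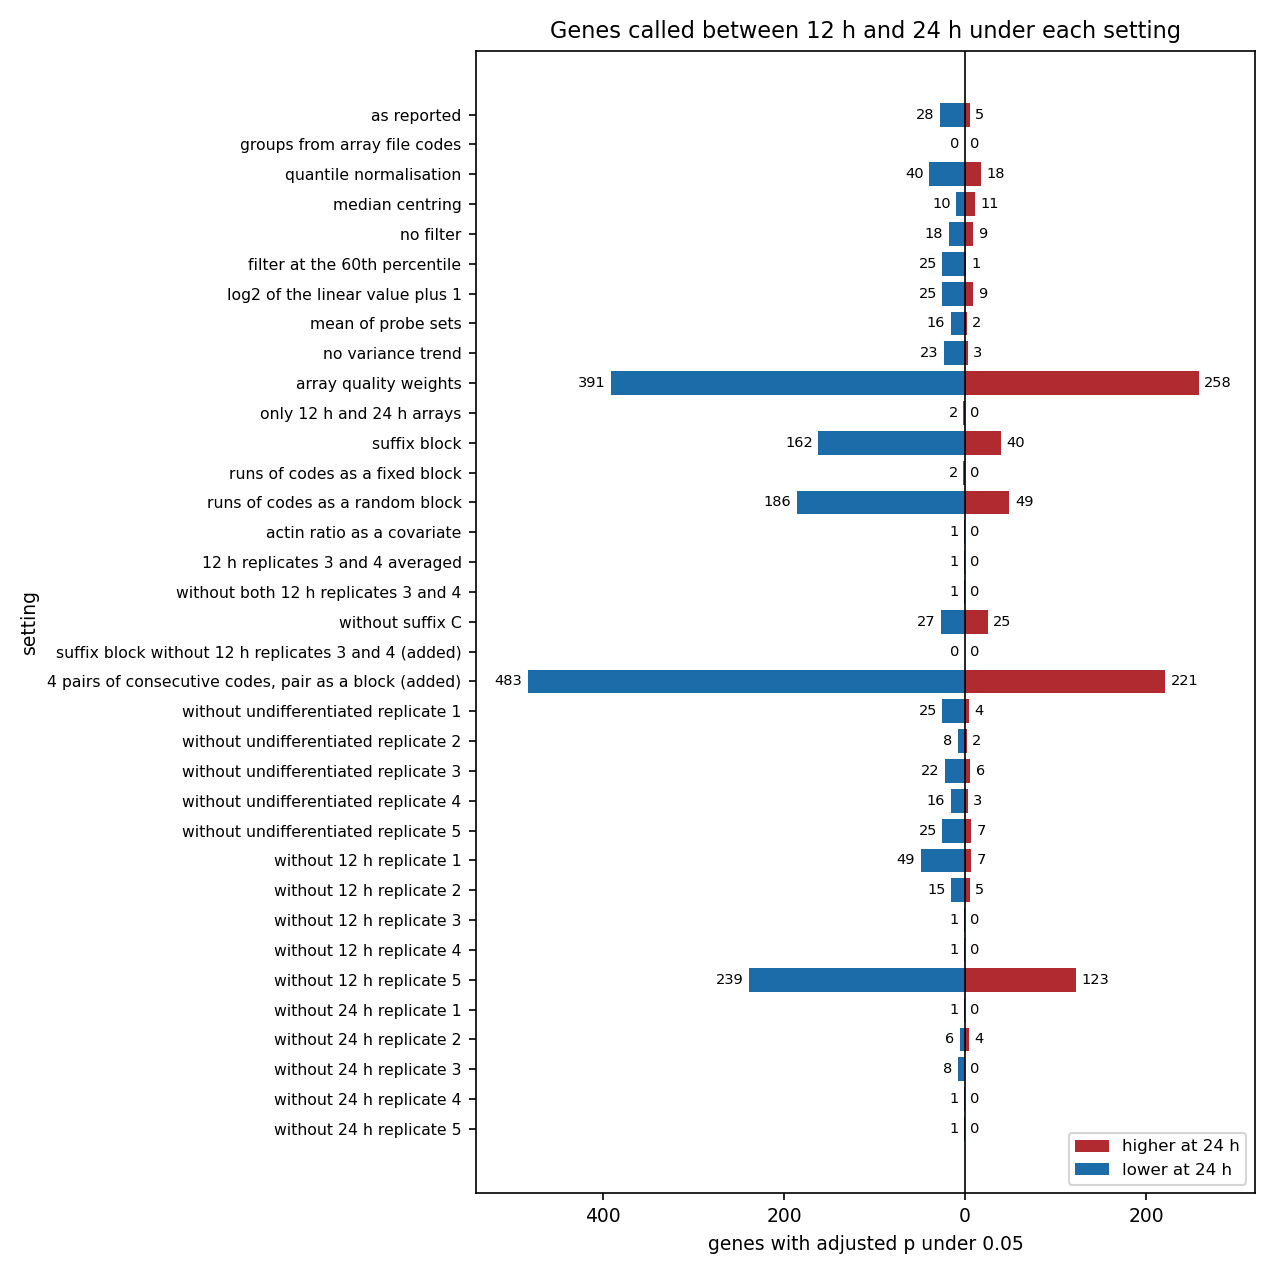
Number of genes called between 12 h and 24 h (x axis), higher to the right in red and lower to the left in blue, as reported and under 34 other settings (y axis). The counts run from 0 and 0 with groups from the description codes to 258 and 391 with array quality weights and to 221 and 483 with the 4 pairs of consecutive codes as a block.

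The number of calls depended on the arrays and the model. All 33 genes kept their direction in every setting in which they were tested. With groups from the description codes, which move 5 of the 12 h and 24 h samples, their changes shrank to between 0.04 and 0.75 in size. The genes were chosen for their changes in these same arrays. In the 31 without overlap, leaving out, averaging or weighting arrays cannot turn the direction, so the kept direction adds no evidence there. Ctsc was called under 32 of 34 other settings, and with each of the 15 arrays left out in turn (limma adjusted p from 0.0009 to 0.0282). The exceptions were the description codes and the suffix block without 12 h replicates 3 and 4. The other 32 genes were called under 8 to 22 settings. Averaging 12 h replicates 3 and 4 into 1 sample left 0 higher genes and 1 lower gene, Ctsc. Leaving out 12 h replicate 3 or 4, or 24 h replicate 1, 4 or 5, did the same, whereas leaving out 12 h replicate 5 gave 123 and 239. With the actin ratio as a covariate Ctsc was again the 1 gene called. With runs of consecutive codes as a fixed block Ctsc and Mest were called, and the other 31 had limma adjusted p up to 0.101.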

How the data were processed

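Total RNA of 15 samples was measured on 1 Affymetrix mouse array each. The deposited values are log10 expression values per probe set, made by the authors with MAS5 per the submitters' processing notes, and their version, scaling and offset are not stated there. That they are log10 was settled from the spike-in probe sets, whose values rose by 1.07 ± 0.0655 (SD, 15 arrays) per log10 unit of concentration. An absolute level therefore has an unknown offset, and MAS5 values of dim probe sets are noisy. The design written beforehand assumed another scale, so values were multiplied by 3.32 to give log2.

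Of 22626 probe sets that are no controls, 20380 had 1 gene symbol, 691 several and 1555 none, and 20351 matched RefSeq (GRCm38.p6) by gene identifier. The probe set with the highest mean stood for a gene, and genes above the 40th percentile of mean level (0.51) were tested. limma 3.58.1 in R 4.3.3 fitted all 15 arrays with a variance trend, and array measures were compared by exact permutation. The number of arrays limits the precision. Tested on simulated data (20 sets, 200 of 7909 genes changed), the fit recovered 36.3% of 1.5-fold and 80.7% of 2-fold changes with 5.145% false calls. These rates describe the simulated sets only. In the real data, arrays of the same suffix deviated together, and whether the rates hold for such arrays was not tested.

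Replicates are numbered in accession order, and the number pairs no samples. The genes, lists and markers described were chosen with earlier results of these data known. Named were up to 15 called genes a direction without overlap (places left over went to the smallest p), 5 a direction for the interval difference, 3 genes a list by p, and 22 markers. Tnfaip8, Nlrx1, Sema3a, Acsbg1, Tnfrsf1a, Serpinh1, Cdh22, Chl1, Plpp1, Alg9 and Itfg1, and some list members, are outside that rule and were named after their values were seen. The values of 1 called gene are not reported here. Alternatives covered scaling, filters, probe sets, blocks, weights and left-out arrays.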

Additional observations from a re-analysis of the deposited data

Results flagged for a closer look

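In 112 groups of 5 arrays, over 54 genes and 2 array ratios, 7 values stood apart by Dixon's criterion (a gap over 0.710 of the group's range), and chance gives about 1 in 20. All 7 were in the 12 h group. In replicate 1, Acta2 was lowest at 2.41 (others 6.21 to 7.12), Olig2 was lowest at 4.93 (others 5.81 to 6.16), Egfr was highest at 5.97 (others 4.64 to 4.98) and Itfg1 was highest at 5.84 (others 5.29 to 5.39). In replicate 5, Sox10 was highest at 5.22 (others 2.30 to 3.07), Nlrx1 was lowest at 1.75 (others 2.36 to 2.58) and Pcp4l1 was lowest at 3.39 (others 3.83 to 3.93). The cause was not tested.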

How the results depend on the processing

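All 33 called genes kept their direction in each setting that tested them, although leaving out or averaging arrays cannot turn it where the groups do not overlap. The counts moved (5 higher and 28 lower as reported). Higher and lower genes numbered 0 and 0 with groups from the description codes, 18 and 40 after quantile normalisation, 11 and 10 after median centring, 9 and 18 without a filter, 1 and 25 with the filter at the 60th percentile, 9 and 25 with 1 added to the linear value, 2 and 16 with probe sets averaged, 3 and 23 without the variance trend, and 258 and 391 with array weights, whose estimate stopped before its tolerance was reached. They numbered 0 and 2 with only the 12 h and 24 h arrays, 40 and 162 with the suffix block, 0 and 2 with runs of codes as a fixed block, 49 and 186 with runs as a random block, 0 and 1 with the actin covariate, 0 and 1 with 12 h replicates 3 and 4 averaged, 0 and 1 without both, and 25 and 27 without suffix C. Chosen after seeing the data, the suffix block without 12 h replicates 3 and 4 gave 0 and 0, and pairs of consecutive codes as a block gave 221 and 483. Leaving out each array in turn gave 0 to 123 higher and 1 to 239 lower. The interval difference, with 0 calls as reported, gave 12 above and 42 below with array weights, 9 and 23 with runs as a random block, 40 and 7 without both 12 h replicates 3 and 4, 2 above with the suffix block without them, and 0 to 2 above and 0 to 27 below with each array left out. The actin ratio difference (0.421) was 0.219 with description codes and 0.313 to 0.559 with each array left out, and the Gapdh ratio difference (0.0568) was -0.0180 and 0.0302 to 0.0857. The cause of these shifts was not tested. Over all settings with a test, the called genes kept the threshold 527 times and lost it 585 times. The labels give no replicate numbers by which samples could be paired, and whether samples with consecutive title codes belong together is not stated.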

Other observations

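Genes of the early response to stimuli stood high in 24 h replicate 2 beyond the 2 named with their values above. Nr4a1, a nuclear receptor of that response, read 5.89 there against 3.00 to 3.39 in the rest of its group. Side by side with that rest stood Junb 4.60 against 0.48 to 1.75, Klf4 3.70 against 0.43 to 0.75, Maff 3.21 against 0.10 to 0.39 and Zfp36 3.27 against 0.65 to 1.08. Socs3 read 7.16 there against 3.06 to 3.92 in the other 24 h arrays, and it encodes a feedback inhibitor of cytokine signalling.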
